A study of Drosophila melanogaster with 2 samples.

Results

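The genes described here code for the subunits of the mitochondrial respiratory chain and the ATP synthase. They are the 87 protein-coding genes, of 13945 in Ensembl release 115, whose symbol starts with ND-, UQCR- or ATPsyn or with COX and a digit, or is SdhA, SdhB, SdhC or SdhD. Complex I has 40 of them, complex II has 7, complex III has 9, complex IV has 16 and complex V, the ATP synthase, has 15. Among them, 24 are paralogs named for another gene with an added L, such as SdhAL beside SdhA. The symbol rule used no measured value, and it leaves out subunits with other names, such as blw, levy, cype and the cytochrome c genes.

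DNA recovered by anti-GFP chromatin immunoprecipitation (ChIP-seq) was profiled in whole Drosophila melanogaster embryos, 0 to 24 h old, males and females pooled. The embryos came from a transgenic line with a stable C-terminal GFP fusion of CG9876, whose product is a paired-like homeodomain protein. The series holds 1 group, with no treatment and no other genotype, as 2 biological replicates. The authors deposited 30000 candidate regions for replicate 1, for replicate 2 and for both combined, and a list of 2433 peaks that were reproducible between them. Control libraries were not analysed here, and the sequencing depth is unknown. In a whole embryo, fewer nuclei bound and less binding in each nucleus cannot be told apart.

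The respiratory chain passes electrons from NADH and succinate to oxygen and pumps protons across the inner mitochondrial membrane, and the ATP synthase uses the returning protons to make ATP. Complexes I, III, IV and V combine subunits coded in the mitochondrial genome with a larger number coded in the nucleus, while complex II is wholly nuclear. In Drosophila, many of the L-type paralogs are expressed mainly in the testis, whereas their parent genes are used throughout the body.

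A gene was called promoter-bound when the summit of a reproducible peak lay within 1 kb of any of its transcription start sites (TSSs). By this rule 13 of the 87 genes (14.9%) were bound, beside 2199 of all 13945 protein-coding genes (15.8%). The share of bound respiratory chain genes was thus close to that of genes in general. The spread between replicates was read from the 2433 strongest regions of each replicate list. In replicate 1 such a region lay within 1 kb of 12 respiratory chain genes (13.8%), beside 15.8% of all genes. In replicate 2 it did so at 14 of them (16.1%), beside 15.3% of all genes. The mean share over replicates was 14.95% ± 1.63 for the respiratory chain genes and 15.55% ± 0.354 for all genes (SD, n = 2 each), a difference smaller than the spread between replicates. Strong regions were found in both replicates at 9 of the 87 genes, beside 1639 of all 13945 genes.

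The bound genes came from complexes I, II, IV and V. Complex I contributed 6 of its 40 genes (15.0%), complex II 1 of 7 (14.3%), complex IV 3 of 16 (18.8%) and complex V 3 of 15 (20%). None of the 9 complex III genes was bound. With so few genes in each complex, 1 gene moves these shares by several percentage points, and no difference between complexes is read from them.

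The 24 paralogs and the other 63 genes differed. No paralog was promoter-bound, and none had one of the strongest regions of either replicate. Of the other 63 genes, 13 were bound (20.6%), with 19% in replicate 1 and 22.2% in replicate 2. Candidate regions of any rank in the combined list lay near 9 of the 24 paralogs (37.5%) and 50 of the other 63 genes (79.4%), beside 61.3% of all genes. The replicate lists gave the same order, with 41.7% of paralogs and 68.3% of the others in replicate 1, and 45.8% of paralogs and 93.7% of the others in replicate 2. Among all genes, 57.6% had a region of any rank in replicate 1 and 62.1% in replicate 2. The strongest combined region at any paralog was at COX7AL2, a paralog of COX7A, with a signal of 65.5 and rank 3814.

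**Figure D1:**
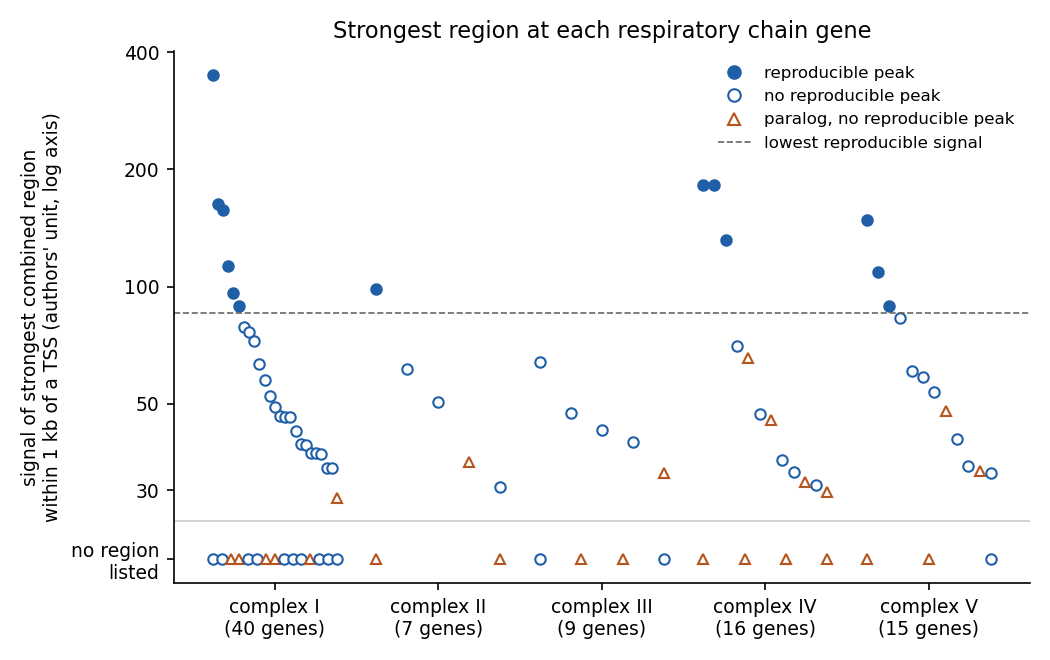
Each point is 1 of the 87 genes, placed by complex along the horizontal axis. The vertical log axis gives the signal, in the authors' unit, of its strongest combined region within 1 kb of a TSS, and genes with no such region sit in the bottom row. Filled points are the 13 bound genes, all at or above a signal of 89.1, and the triangles, which are the 24 paralogs, all lie below the dashed line at 85.4, the lowest signal in the reproducible list.

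Most bound genes shared their peak with a neighbour. At 12 of the 13 bound genes (92.3%) the same summit also lay within 1 kb of a TSS of at least 1 other protein-coding gene, compared with 1474 of the 2199 bound genes in all (67%). ND-20 was the exception. At 11 of the 12 the neighbour is transcribed away from the respiratory chain gene on the opposite strand, from a start within 1 kb. The summit lay between the nearest diverging starts at 8 of these 11, and downstream of the nearest start of the respiratory chain gene at ND-24, ATPsynE and ND-SGDH. Not all of the 8 summits were between genes. The COX5A summit was also in the 5' UTR of COX5A, and those at ND-MWFE, ND-ASHI and ATPsynbeta were in an intron of the neighbour. At 4 bound genes, ND-MWFE, ND-ASHI, ATPsynbeta and SdhA, the closest TSS belonged to the other gene.

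The nearest diverging starts at these promoters lay from 42 bp (ND-24) to 522 bp (ND-ASHI) apart. The sequences between the starts are given for 4 of them, none with starts more than 232 bp apart (ND-51), so the longer ones are not shown. The sequences are from the dm6 genome (RefSeq), on the strand of the respiratory chain gene. They run from the first base of the neighbour to the first base of the respiratory chain gene. The COX6B run is chrX:19744335-19744431 (minus strand) and begins at CG33932. The ND-24 run is chrX:17632047-17632089 (plus strand) and begins at corolla. The ND-51 run is chr2L:6062757-6062989 (minus strand) and begins at CG13994. The ATPsynCF6 run is chr3R:23356064-23356278 (minus strand) and begins at Sec13. Capitals mark an inverted repeat in COX6B, an adjoining TAATTA and CAGCTG in ND-51, and a CAGCTG in ATPsynCF6.
COX6B: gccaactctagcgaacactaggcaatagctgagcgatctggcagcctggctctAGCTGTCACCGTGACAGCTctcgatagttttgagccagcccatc
ND-24: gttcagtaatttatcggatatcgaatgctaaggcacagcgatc
ND-51: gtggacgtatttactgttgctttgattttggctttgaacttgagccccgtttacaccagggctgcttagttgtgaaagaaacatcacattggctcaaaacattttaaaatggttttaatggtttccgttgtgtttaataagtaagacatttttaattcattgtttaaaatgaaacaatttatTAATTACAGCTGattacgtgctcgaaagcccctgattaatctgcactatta
ATPsynCF6: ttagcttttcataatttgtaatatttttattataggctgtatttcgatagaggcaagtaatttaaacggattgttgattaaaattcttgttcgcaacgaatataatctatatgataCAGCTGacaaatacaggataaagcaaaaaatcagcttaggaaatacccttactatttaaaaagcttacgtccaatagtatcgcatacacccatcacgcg

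The COX6B interval is 97 bases long, and the summit is its base 53. The base after it opens the inverted repeat, which has arms of 9 bases and a spacer of 1 base. Inverted repeats with arms of 8 bases or more and a spacer of up to 4 were then counted within 100 bp of every promoter summit. They were present at 2 of the 13 peaks (15.4%, COX6B and ND-24), beside 84 of 1615 promoter peaks in all (5.2%). This search was chosen after the sequence was seen. In ND-51 the summit is base 141 of 233, and in ATPsynCF6 it is base 167 of 215. The ND-24 interval is only 43 bases long, and the ND-24 summit lies 69 bp inside that gene.

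The complex I genes with a peak code for 3 core subunits and 3 accessory subunits. Signals are those of column 7 of the authors' lists, and ranks are within each list of 30000 regions. The strongest of all 13 peaks was at ND-MWFE, which codes for a small accessory subunit of the membrane arm. It spans chr2R:13158365-13158592, with a signal of 349.5 and rank 136 over both replicates combined. Replicate 1 gave it 203.5 and rank 119, and replicate 2 gave it 142.7 and rank 213. Its summit lay 181 bp upstream of ND-MWFE and 40 bp upstream of the nearest TSS of TppII, a large peptidase gene, in an intron of TppII. The peptidase gene is thus the closer one.

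ND-24, ND-51 and ND-20 are core subunits of the arm of complex I that takes electrons from NADH and carries them through iron-sulfur clusters. ND-24 had a combined signal of 162.8 (rank 779), with 85.7 in replicate 1 and 72.7 in replicate 2. Its peak is chrX:17631973-17632342, and its summit lay in the 5' UTR of ND-24 and 111 bp upstream of corolla, a gene of the synaptonemal complex. ND-51, whose product holds the flavin that NADH reduces, had 112.7 (rank 1547), with 45.2 in replicate 1 and 63.5 in replicate 2. The ND-51 peak, chr2L:6062664-6063033, was thus higher in replicate 2, while the ND-24 peak was higher in replicate 1.

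ND-20 had a combined signal of 96.3 (rank 1995) and 55.9 (rank 1665) in replicate 2, and no region of replicate 1 lay at its summit. The ND-20 peak, chrX:15986720-15987089, was the only one of the 13 missing from a replicate list. The other core subunits were ND-75, ND-49, ND-30 and ND-23, and none was bound. ND-30 and ND-23 had weak combined regions of 46.3 and 42.7, ND-75 had a region of 21.3 in replicate 2 only, and ND-49 had a region in no list. Core subunits were thus bound at 3 of 7 (42.9%), and other complex I subunits outside the paralogs at 3 of 27 (11.1%), beside 15.8% of all genes. In replicate 1 these shares were 28.6% for core and 14.8% for other subunits, and in replicate 2 they were 42.9% and 14.8%. A diverging neighbour was annotated for 85.7% of the core subunits and 59.3% of the others, and its part in the counts was not tested. With only 7 core genes, 1 gene moves their share by many percentage points. ND-20 and ND-51 were no longer bound with the 1216 peaks of higher signal. No difference between core and other subunits is read from these counts.

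ND-ASHI and ND-SGDH, accessory subunits of the membrane arm, were the remaining bound genes of complex I. The ND-ASHI peak, chrX:6679212-6679581, had a combined signal of 157.4 (rank 831), with 72.4 in replicate 1 and 87.2 in replicate 2. Its summit lay 279 bp upstream of ND-ASHI and 243 bp upstream of the nearest TSS of Fum1, which codes for fumarase. The same position is in an intron of Fum1. The pair thus joins a respiratory chain gene and a citric acid cycle gene at 1 peak. ND-SGDH, at chr3L:12138394-12138763, had the lowest signal of the 13, at 89.1 (rank 2284), with 51.0 in replicate 1 and 40.2 in replicate 2. Its summit lay 5 bp inside the gene and 289 bp upstream of RhoGAP68F.

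SdhA was the single bound gene of complex II, which passes electrons from succinate to ubiquinone and is shared with the citric acid cycle. SdhA codes for the flavoprotein that oxidizes succinate. Its peak, chr2R:19396619-19396988, had a combined signal of 98.4 (rank 1924), with 38.9 (rank 2894) in replicate 1 and 57.2 (rank 1584) in replicate 2. The summit lay 833 bp upstream of SdhA and 32 bp upstream of cer, a gene on the same strand. SdhA was therefore bound only as a distant neighbour, and it was no longer called with a window of 500 bp. SdhC, SdhD and SdhB, which code for the membrane anchors and the iron-sulfur subunit, had combined regions of 61.4, 50.4 and 30.6, all below the reproducible list.

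Complex III, which passes electrons from ubiquinol to cytochrome c, had no promoter peak among its 9 genes. The strongest combined region was at UQCR-Q, with 63.9 (rank 4007), and its values were 31.1 in replicate 1 and 29.97 in replicate 2. UQCR-14, UQCR-6.4 and UQCR-C2 had combined regions of 47.4, 42.9 and 39.9. UQCR-C1, which codes for a large core protein of the complex, had a region in no list. UQCR-11 had one in replicate 1 only, at 33.0.

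Complex IV, cytochrome c oxidase, passes electrons to oxygen and had peaks at COX6B, COX5A and COX8, all nuclear-coded subunits around its catalytic core. COX6B, which faces the intermembrane space, had a combined signal of 182.6 (rank 608), with 105.8 (rank 516) in replicate 1 and 80.6 (rank 784) in replicate 2. Its peak, chrX:19744194-19744563, lies 44 bp upstream of COX6B and of CG18809 alike, and 52 bp upstream of the diverging genes CG33932 and Rpp20. Rpp20 codes for a subunit of RNase P. This peak therefore had 4 genes within 1 kb.

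COX5A had the closest replicate values, with a combined signal of 182.3 (rank 612) beside 90.02 in replicate 1 and 87.6 in replicate 2. Its peak is chr3R:11819366-11819735, with the summit 48 bp upstream of 1 COX5A start, inside the 5' UTR of another, and 131 bp upstream of glo, an RNA-binding protein gene. COX8, at chr3L:21539339-21539708, had 131.9 (rank 1158), with 79.4 (rank 909) in replicate 1 and 45.1 (rank 2600) in replicate 2. The COX8 peak was thus among the strongest 2433 regions in replicate 1 only. Its neighbour VhaM9.7-b, which codes for a subunit of the vacuolar proton pump, starts 338 bp from the summit.

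Complex V had peaks at ATPsynE, ATPsynbeta and ATPsynCF6. ATPsynbeta codes for the catalytic subunit of the ATP synthase and lies on chromosome 4. Its peak, chr4:1030843-1031212, had a combined signal of 108.9 (rank 1636), with 43.3 in replicate 1 and 51.6 in replicate 2. The summit lay 456 bp upstream of ATPsynbeta and 53 bp upstream of the nearest TSS of the diverging gene CG11076, in an intron of CG11076.

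ATPsynE, a subunit of the membrane part of the enzyme, had 148.7 (rank 933), with 93.5 (rank 652) in replicate 1 and 47.8 (rank 2283) in replicate 2. Its peak is chr3R:14326807-14327176, with the summit 45 bp inside ATPsynE and 303 bp upstream of Afti. ATPsynCF6, coupling factor 6 of the stalk, had 89.4 (rank 2273), with 57.9 (rank 1505) in replicate 1 and 29.5 (rank 6525) in replicate 2. Its peak, chr3R:23355927-23356296, lies 48 bp upstream of ATPsynCF6 and 166 bp upstream of Sec13, a gene of the vesicle coat and nuclear pore. Among the 12 peaks listed in both replicates, the signal differed most at a pair of complex V peaks, by 0.97 on the log2 scale (replicate 1 over replicate 2) at both ATPsynE and ATPsynCF6.

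**Figure D2:**
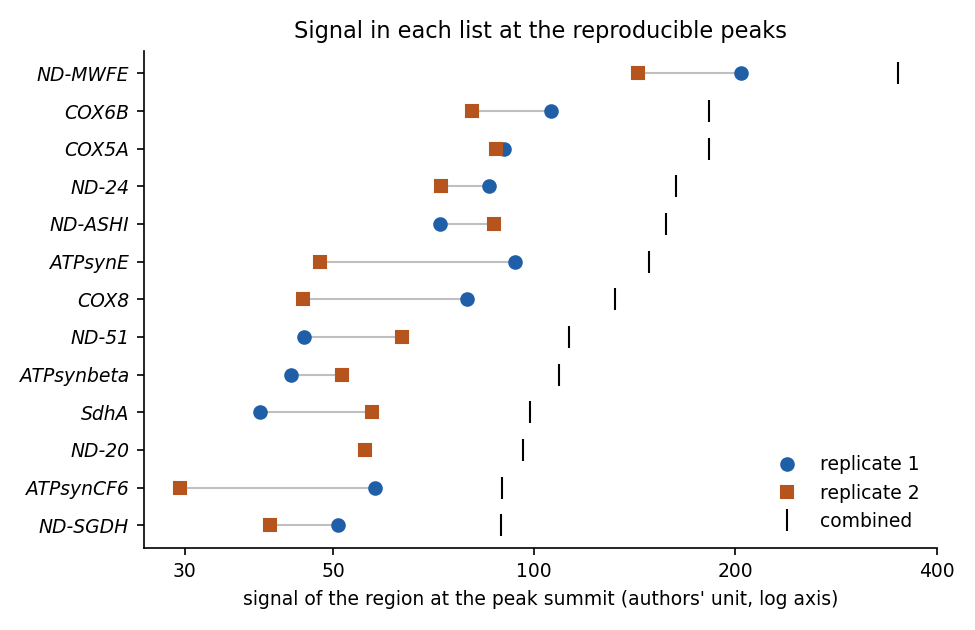
The 13 bound genes are listed from the highest to the lowest combined signal, and the log axis gives signal in the authors' unit. Circles are replicate 1, squares are replicate 2 and bars are the combined list, whose values run higher than those of either replicate. Replicate 1 was higher at 8 of the 12 peaks listed in both, beside 942 of the 1566 such peaks among all promoter peaks. ND-20 has no circle because replicate 1 held no region there.

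As a set, the 13 peaks had ordinary signal. Their median combined signal was 131.9, beside 133.0 for all 1615 reproducible promoter peaks, and the highest signal in that list was 1939.5. In replicate 1 the medians were 75.9 over 12 peaks and 70.6 over all, and in replicate 2 they were 57.2 and 64.8. At 8 of the 13 peaks (61.5%) the summit was among the strongest regions of both replicates, beside 70.0% of all promoter peaks. The log2 ratio of replicate 1 to replicate 2 had a median of 0.29 and an SD of 0.54 over 12 peaks, and a median of 0.14 and an SD of 0.60 over all.

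The peaks lay close to the starts of genes. Summits were a median of 48 bp from the nearest TSS of any gene, beside 100 bp for all promoter peaks, and 12 of the 13 (92.3%) were within 100 bp, beside 50.03%. Relative to the nearest TSS of the respiratory chain gene itself, 10 summits lay upstream and 3 downstream. The sequence within 100 bp of the summit had a median GC content of 34.8%, beside 39.3% for all promoter peaks.

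**Figure D3:**
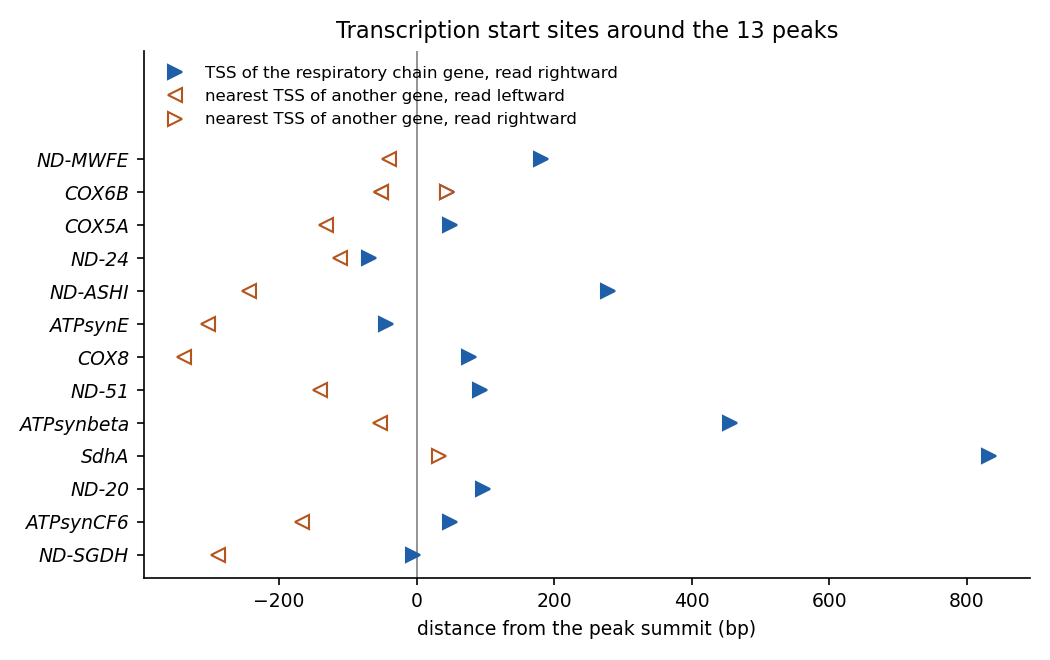
Each row is 1 bound gene, drawn so that it is read rightward, with the peak summit at 0 and the horizontal axis in bp. Filled arrows are the nearest TSS of the respiratory chain gene, and open arrows are the nearest TSS of each other gene within 1 kb. Leftward arrows to the left of the summit are diverging neighbours, SdhA stands apart at 833 bp, and ND-20 has no open arrow.

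The number of bound genes followed the presence of a diverging neighbour, as it did for genes in general. Such a neighbour, with a TSS within 1 kb upstream on the opposite strand, was annotated for 44 of the 87 genes (50.6%), beside 36.2% of all genes. Of these 44, 11 were bound (25%), beside 28.6% of all genes with a diverging neighbour. Of the 43 without one, ND-20 and SdhA were bound (4.65%), beside 8.49% of all such genes. When the paralogs were left out, these were 2 of 23 genes (8.7%), close to the share of all such genes. Over all 87 genes, the values in the strongest regions of the replicates were 27.3% in both with a neighbour, and 0% and 4.65% without. For all genes they were 29.3% and 26.6% with a neighbour, and 8.12% and 8.94% without.

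Paralogs seldom had such a neighbour, with 4 of 24 (16.7%), beside 40 of the other 63 genes (63.5%). None of those 4 paralogs was bound, and 11 of those 40 genes were (27.5%), beside 28.6% of all genes with a diverging neighbour. With only 4 such paralogs, no difference is read from these counts. Genes with several annotated starts were also bound more often. Of the 35 respiratory chain genes with 2 or more TSSs, 10 were bound (28.6%), beside 26% of all such genes. Of the 52 with 1 TSS, 3 were bound (5.77%), beside 12.1% of all such genes. A gene with more starts has more places for a summit to count, and the part of this in the counts was not tested.

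**Figure D4:**
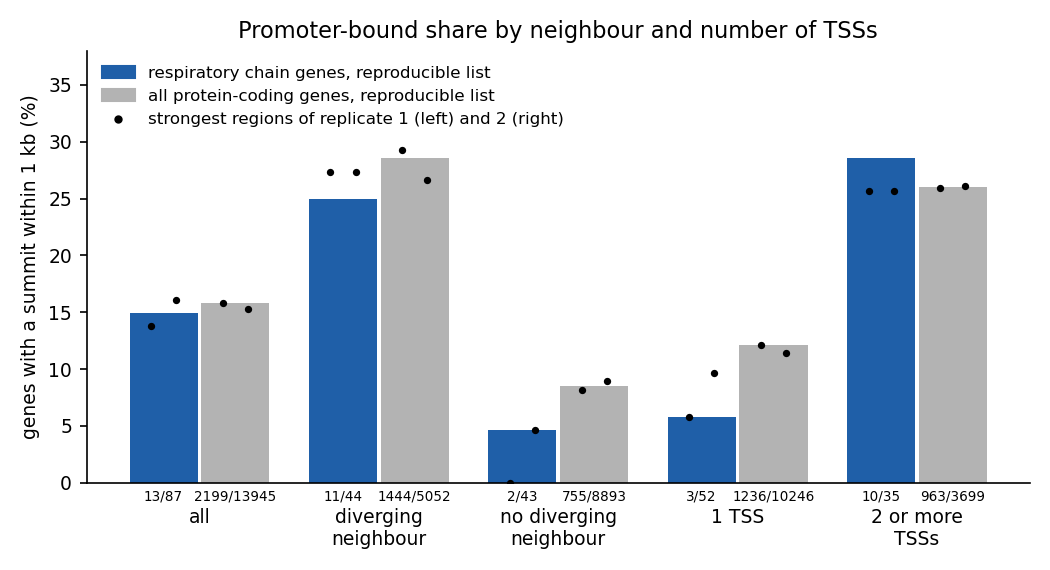
Bars give the percentage of genes with a reproducible summit within 1 kb of a TSS, for respiratory chain genes (blue) and all protein-coding genes (grey), with the counts under each bar. Dots are the values from the strongest regions of replicate 1 and replicate 2. Blue bars with a diverging neighbour (25%) and with 2 or more TSSs (28.6%) stand above those without a neighbour (4.65%) and with 1 TSS (5.77%), and the grey bars follow the same order.

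Several genes fell just outside the reproducible list. The values nearest inside it were ND-20 at 96.3, ATPsynCF6 at 89.4 and ND-SGDH at 89.1. The nearest outside were ATPsynF at 83.2 (rank 2539), ND-B8 at 78.6 (rank 2758) and ND-B17 at 76.6 (rank 2865), followed by ND-42 at 72.4 and COX7B at 70.6. Regions ranked 2434 to 4866 in the combined list lay near 11 unbound respiratory chain genes (12.6%), beside 9.7% of all genes.

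The replicates did not place these genes alike. ATPsynF, a subunit of the membrane part of the ATP synthase, had 35.9 in replicate 1 and 46.7 in replicate 2. ND-B8 had 18.1 (rank 22451) in replicate 1 and 52.0 (rank 1921) in replicate 2, and ND-B17 had 41.4 and 31.6. ATPsynF, ND-B8 and COX7B were each near a strong region of replicate 2 but not of replicate 1. ND-42 was near a strong region of both replicates, yet no region of replicate 1 lay at its combined summit, 314 bp upstream of its TSS. Over all 87 genes, 47 had a region of any rank in both replicate lists, 23 in replicate 2 only, 6 in replicate 1 only and 11 in none. Of all 13945 protein-coding genes, 6317 had one in both, 2342 in replicate 2 only, 1714 in replicate 1 only and 3572 in none.

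The bound genes lay on all 6 chromosome arms. On the X, 4 of 13 respiratory chain genes were bound (30.8%), beside 14.8% of all X genes. The counts were 1 of 16 on 2L, beside 15.6% of all genes there, and 2 of 17 on 2R, beside 14.4%. They were 2 of 20 on 3L, beside 16.1%, 3 of 19 on 3R, beside 17.5%, and 1 of 2 on chromosome 4, beside 13.8%. With 1 to 4 bound genes on each, no difference between chromosomes is read from these counts.

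Other genes of the pathway were counted in 3 short lists, beside 15.8% of all genes. Of 11 subunits and carriers outside the symbol rule, 3 were bound (27.3%). They were blw, which codes for the alpha subunit of the ATP synthase, at 238.5, Cyt-c1L at 152.2 and levy, a subunit of cytochrome c oxidase, at 141.9. Of 19 citric acid cycle genes, 6 were bound (31.6%), with mAcon1 (aconitase) at 168.4, Fum1 at 157.4, Idh3b at 103.2, Idh3g at 95.9, Ogdh at 95.7 and CG5214 at 91.4. Of 12 regulators and mitochondrial DNA factors, 3 were bound (25%). They were mtSSB, which binds single-stranded mitochondrial DNA, at 257.8, Dref, the factor that binds the DNA replication-related element (DRE), at 169.2, and the mitochondrial RNA polymerase gene PolrMT at 88.6. The strongest regions of replicate 1 and replicate 2 gave wider values for these short lists. They were 45.5% and 54.5% for the subunits and carriers, 15.8% and 31.6% for the citric acid cycle, and 16.7% and 33.3% for the regulators. In replicate 1 the citric acid cycle and the regulators were thus at or near the 15.8% of all genes. TFAM, which packages mitochondrial DNA, and the respiratory gene regulators ewg, Ets97D and srl were not bound, at 43.0, 49.1, 39.7 and 83.6.

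Ribosomal protein genes were bound at higher shares than the respiratory chain genes, beside 15.8% of all genes. Genes of the mitochondrial ribosome were bound at 17 of 73 (23.3%), with 26% in replicate 1 and 23.3% in replicate 2. Those of the cytosolic ribosome were bound at 71 of 93 (76.3%), with 67.7% in replicate 1 and 73.1% in replicate 2. Both replicates of the respiratory chain genes (13.8% and 16.1%) were below both replicates of each ribosomal list. Without the paralogs, the other 63 respiratory chain genes (20.6%, with 19% in replicate 1 and 22.2% in replicate 2) were close to the mitochondrial ribosomal list. A diverging neighbour was annotated for 50.6% of the respiratory chain genes, 79.5% of the mitochondrial ribosomal genes and 60.2% of the cytosolic ones.

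Short sequence motifs were counted on both strands within 100 bp of the summits. The DRE, TATCGATA, was at 2 of the 13 peaks (15.4%), beside 9.04% of all 1615 promoter peaks. The E-box CAGCTG was at 4 (30.8%: ATPsynCF6, ATPsynE, ND-51 and SdhA), beside 13.6%. The homeodomain core TAATTA was at ND-24 and ND-51, 2 of 13 (15.4%), beside 11.6%. The dimer site of paired-class homeodomains, TAAT and ATTA with 3 bases between, was at ND-24 alone (7.69%), beside 1.73%. TATAAA was at 7 (53.8%), beside 25.9%, and GAGAG was at COX6B alone (7.69%), beside 23.7%. Neither GGTCACACT (Ohler motif 1, 3.47% of all promoter peaks) nor the E-box CACGTG (3.59%) was at any of the 13. The ETS site CCGGAAG (1.49%) was at none, and likewise the sequence GCGCATG, which is part of an NRF1 site (1.98%). With 13 peaks, each peak is 7.69 percentage points.

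Both DRE matches lay inside the transcribed part of the gene, 61 to 63 bp from the summit. They are shown with 10 bases on either side, on the strand of the gene and with the DRE in capitals. The ATPsynE match is chr3R:14327050-14327057 (plus strand), 103 bp after its TSS, and the ND-SGDH match is chr3L:12138513-12138520 (minus strand), 64 bp after its TSS.
ATPsynE: ccaatacaacTATCGATAgccgcctgtc
ND-SGDH: tctctgctgtTATCGATAtatcaaaaca

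In the promoters of all 87 respiratory chain genes, bound or not, GGTCACACT was more frequent than in promoters in general. Promoters were taken from 250 bp before to 50 bp after the most 5' TSS. This motif was in 15 of 87 (17.2%), beside 6.05% of all promoters. It was in 14 of the 63 genes that are not paralogs (22.2%) and in COX7AL alone among the paralogs (4.17%). It was in 2 of the 13 bound genes (15.4%) and in 12 of the 50 unbound genes that are not paralogs (24%), shares that 1 bound gene moves by 7.69 percentage points. CAGCTG was in 21 promoters (24.1%), beside 17.7%, TATAAA in 48 (55.2%), beside 45.8%, and TATCGATA in 9 (10.3%), beside 9.36%. GAGAG was in 20 (23%), beside 29.7%, and TAATTA in 21 (24.1%), beside 20.4%. CACGTG was in 4 (4.6%), beside 4.2%, and GCGCATG in 3 (3.45%), beside 2.52%. The paired-class dimer was in SdhCL alone (1.15%), beside 3.11%, and CCGGAAG in none, beside 1.09%.

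A further sequence is known from Drosophila nuclear genes of mitochondrial respiration, the palindromic nuclear respiratory gene element. It was searched as TTATATAA, TTATGTAA and TTACGTAA on both strands, so that TTATGTAA on the other strand reads TTACATAA along the gene, and the first form can overlap TATAAA. In the promoter window it was in 5 of the 87 genes (5.75%), beside 5.18%, and within 100 bp of a summit at ND-SGDH alone (7.69%), beside 2.72%. From 1 to 500 bp after the most 5' TSS, the element was present in 44 of the 87 genes (50.6%), beside 788 of 13945 (5.65%). In the 500 bp before the TSS it was in 8 (9.2%), beside 9.62%. This window was chosen after the positions were seen. The element is already known from genes of this kind, so its frequency in them is only a description. None of the 24 paralogs carried it after the TSS, and 44 of the other 63 genes did (69.8%).

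The element was present in all 7 core complex I genes and in genes of every complex. The counts were 23 of 40 in complex I, 3 of 7 in complex II, 3 of 9 in complex III, 5 of 16 in complex IV and 10 of 15 in complex V. Of the 48 matches, 32 lay in introns, 15 in 5' UTRs and 1 in a coding exon, at a median of 238 bp after the TSS. The match at each core complex I gene and at 6 genes of the other complexes is shown with 10 bases on either side, on the strand of the gene, to show how far the sequence around it varies. Coordinates are dm6 (RefSeq) and are those of the 8 capitals, which mark the element. ND-75 is at chrX:8251442-8251449 (minus strand), ND-51 at chr2L:6062510-6062517 (minus), ND-49 at chr4:571531-571538 (minus), ND-30 at chr3L:3159523-3159530 (minus), ND-24 at chrX:17632533-17632540 (plus), ND-23 at chr3R:15836904-15836911 (minus) and ND-20 at chrX:15986742-15986749 (minus). SdhD is at chr3R:23760389-23760396 (minus), UQCR-C1 at chr3R:14890473-14890480 (plus), COX7A at chr3R:8340820-8340827 (minus), COX6B at chrX:19744036-19744043 (minus), ATPsynB at chr3L:9730229-9730236 (plus) and ATPsynCF6 at chr3R:23355852-23355859 (minus).
ND-75: accaaaacacTTATGTAAtttttattgg
ND-51: tgccatcaaaTTATGTAAtttttgcgca
ND-49: agcagaaccaTTATGTAAgttcctagta
ND-30: cattttagcaTTACATAAattgtcaaaa
ND-24: gttccccgagTTATATAAttggcgacag
ND-23: gcgagtgaggTTATGTAAgcttatgtca
ND-20: taagttgaagTTACATAAataggtatta
SdhD: acagctttcaTTATATAAccaaaccgtt
UQCR-C1: aggatttaaaTTACGTAAttgtaaatga
COX7A: ctacatccaaTTACGTAAgttccctgga
COX6B: aaagtacaagTTACATAActcgctgatg
ATPsynB: acatcgtggtTTATGTAAtcaccaccca
ATPsynCF6: aacaattgtaTTACATAAcctttttaag

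All forms of the element occurred among the matches. As read along the gene, TTACATAA made up 15 of the 48 matches, TTACGTAA 12, TTATGTAA 12 and TTATATAA 9. The distances from the TSS were 238 bp at ND-75, 240 bp at ND-51 and 206 bp at ND-23, but 16 bp at ND-49, 48 bp at ND-30 and 59 bp at ND-20. In the 100 bp bin that starts 200 bp after the TSS, 22 of the 87 genes carried it (25.3%), beside 1.33% of all genes.

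Few matches lay at a recovered region, and their share was near that over all genes. Of the 48 matches, 3 (6.25%) had a summit of the combined list within 100 bp, at UQCR-14, COX5B and ATPsynG, beside 7.26% of 827 matches over all genes. The match within 100 bp of the ND-SGDH summit lies before the TSS and is not among these 48. At bound genes with a match after the TSS, the nearest such match lay 160 to 1291 bp from the reproducible summit, with a median of 359 bp. At ND-51 this distance was 336 bp, at ATPsynCF6 257 bp and at COX6B 340 bp.

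Too few genes lack the element for a difference in binding to be read. It was present in 10 of the 13 bound genes (76.9%) and in 34 of the 50 unbound genes that are not paralogs (68%). Seen the other way, 10 of 44 genes with the element were bound (22.7%), and 3 of 19 without it that are not paralogs (15.8%). Those 3 were COX5A, COX8 and ATPsynbeta. Over all genes, 141 of 788 with the element were bound (17.9%), beside 15.8% of all 13945.

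**Figure D5:**
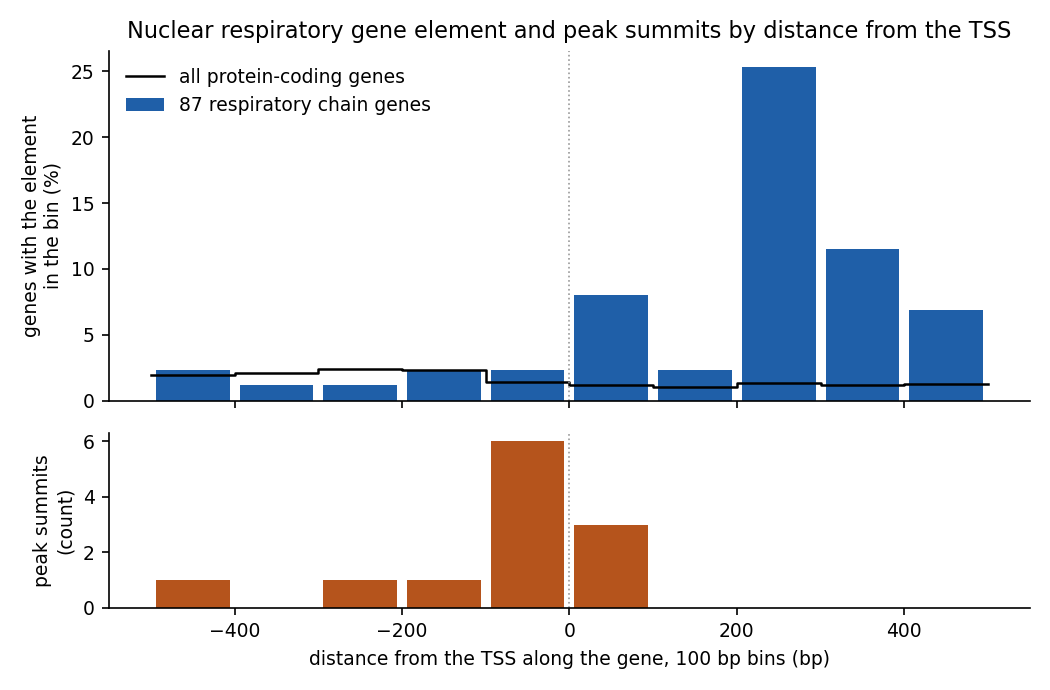
The upper panel gives the percentage of genes with the nuclear respiratory gene element in each 100 bp bin from the most 5' TSS, as bars for the 87 respiratory chain genes and a line for all protein-coding genes. The lower panel counts reproducible summits by distance from the nearest TSS of the bound respiratory chain gene, and the SdhA summit at -833 bp is outside the axis. The element was most frequent in the bin that starts 200 bp after the TSS (25.3%, beside 1.33% of all genes), and the lower panel has no summit in that bin. The panels can measure from different starts at genes with several TSSs.

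Related gene lists fell in a different order by the element than by binding. The element was in 8 of 11 other respiratory chain genes (72.7%), 8 of 19 citric acid cycle genes (42.1%), 14 of 73 mitochondrial ribosomal protein genes (19.2%) and 2 of 12 regulators and mitochondrial DNA factors (16.7%), beside 5.65% of all genes. It was in 1 of 93 cytosolic ribosomal protein genes (1.08%), the list with the highest bound share. Over all 87 respiratory chain genes the element was frequent (50.6%) and the bound share (14.9%) was near that of all genes (15.8%). These shares mix the 24 paralogs, which had neither the element after the TSS nor a peak, with the other 63 genes. Of those 63 genes, 69.8% had the element and 20.6% were bound. In cytosolic ribosomal protein genes the element was rare and the bound share was 76.3%. A link between the element and binding was not tested.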

How the data were processed

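Anti-GFP ChIP-seq of CG9876-GFP embryos was given as narrowPeak lists. Per the deposited text files, a replicate's list came from aligned reads set against a control, both replicates together gave the combined list, and irreproducible discovery rate over these gave the reproducible list. How reads were aligned, how peaks were called and how deep the libraries were is not given in the sources used here, and the lists in the dm3 build were not used. Column 7 holds a signal in the authors' unit, made before they deposited it. It was used to rank and describe regions within a list, and to set replicate 1 beside replicate 2. Each list has its own scale, so a difference in signal between replicates may also hold a difference in scale. Column 9 holds −log10 of a q-value from the authors, which reached q-values of 0.908 in the combined list, 0.811 and 0.753 in the replicate lists and 0.0019 in the reproducible list, so low-ranked candidates include weak regions.

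Summits (dm6) were assigned to every gene with a TSS within 1 kb, from Ensembl release 115 on 6 chromosome arms (19607 TSSs). Sequence was RefSeq's dm6 genome. The reproducible peaks of the 13 genes are named, as are the strongest unbound genes, the core complex I subunits and the bound genes of the other lists. The members and lists were chosen with earlier results of these data known. There is 1 group, so no test between groups exists and no p-value is given. Counts are beside the same over all genes, which are not replicates, and over each replicate's strongest 2433 regions. The replicates are labelled biological, from separate biosamples, and their number (n = 2) limits the precision. The steps were tested on simulated data. Alternatives covered other windows, a stricter list, other assignments of summits to genes, each replicate alone and other motif windows. Software versions were Python 3.11.15, numpy 2.4.6, pandas 2.3.3 and matplotlib 3.10.9.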

Additional observations from a re-analysis of the deposited data

How the results depend on the processing

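Of 116 values recomputed under other settings, 89 stayed within 1.5 times of the main value and 27 moved beyond it. With the 1216 peaks of higher signal, bound genes numbered 7 of 87 (8.05%, beside 8.63% of all genes), the same 7 among the genes that are not paralogs, with 3 in complex I, 0 in complex II and 1 in complex V. A window of 500 bp gave 12 bound genes, and 0 in complex II. A window of 2 kb gave 18 (20.7%, beside 19.2% of all genes), with 2 in complex II, 1 in complex III and 1 paralog, COX7AL2. Counting any base of a region gave 14, 1 of them in complex III. Counting a peak only for its nearest TSS gave 9, with ND-MWFE, ND-ASHI, ATPsynbeta and SdhA lost and 0 in complex II. Leaving out a replicate gave 12 to 14 bound genes in all, 6 to 7 in complex I, 0 to 1 in complex II, 0 in complex III, 3 in complexes IV and V each, 0 paralogs and 12 to 14 other genes, and medians of 0.884 to 1.08 times that of all promoter peaks. Without the paralogs of another member, 13 of 67 genes were bound (19.4%). Within 50 bp of the summits the motif counts were 0 for the DRE, 2 for CAGCTG, 1 for TAATTA, 0 for the paired-class dimer, 4 for TATAAA and 0 for the nuclear respiratory gene element, beside 4.89%, 6.87%, 5.39%, 0.743%, 12.2% and 0.991% of all promoter peaks. Within 200 bp they were 1 for GGTCACACT, 1 for CACGTG, 2 for GAGAG and 2 for the nuclear respiratory gene element, beside 5.76%, 6.69%, 41.7% and 6.44%. In promoters from 100 bp before to 100 bp after the TSS they were 1 for CACGTG, 7 for TAATTA, 26 for TATAAA and 9 for the nuclear respiratory gene element. The shares of all promoters there were 2.88%, 9.9%, 29.1% and 2.32%, so that the element, at 9 of 87 (10.3%), was more frequent than in all promoters in this window but not in the window used above (5.75%, beside 5.18%). After any TSS the element was in 49 genes (56.3%, beside 7.59% of all genes), and from 100 to under 300 bp after the most 5' TSS in 23 (beside 2.37%), both chosen after seeing the data. The causes were not tested, though smaller windows and shorter lists read fewer positions by construction. Leaving out assembly factors could not be run, because the symbol rule held none. No paired analysis was possible because the series holds 1 group. The depth is unknown, and with 13 peaks and 2 replicates a share of the peaks moves by 7.69 percentage points with each peak.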
